A study of Mus musculus with 2 samples.

Results

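The genes described here are 9 transcripts of tissue homing and retention in intraepithelial lymphocytes (IELs), the T cells that lie between epithelial cells of the gut. They were chosen by gene symbol (Itgae, Itgb7, Itgal, Itgb2, Itga4, Itga1, Cd69, Ccr9 and S1pr1), and each of the 9 had a row among the 19294 genes of the count matrix. The cells were colon crypt cells of C57BL/6 mice aged 4 to 10 months that carried the knock-in allele Tcf4 GfpCre/+ and the reporter RosamTmG/+ and had no pretreatment. Tcf4, also called Tcf7l2, was therefore heterozygous in every cell measured, and no wild-type animals were part of the comparison. Cells in which the Tcf4 promoter had never driven Cre (Tcf4 Lin-), together with cells that carried both reporter colours (DP), were sorted and profiled by Drop-seq, which captures 3′ ends of transcripts in droplets and counts molecules by unique molecular identifiers (UMIs). The libraries came from pooled samples 1 to 3 and pooled samples 4 to 6. The barcodes carry the suffix X1 or X2, which no label ties to a pool, so all cells were treated as 1 sample and no test between animals was possible.

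An αβ integrin is an adhesion receptor made of 1 α and 1 β subunit. Itgae encodes αE (CD103), which pairs with β7 (Itgb7) and binds E-cadherin on epithelial cells, while α4 (Itga4) with β7 guides lymphocytes to gut vessels that display MAdCAM-1. αL and β2 (Itgal, Itgb2) form LFA-1, a receptor for ICAMs, and α1 (Itga1) pairs with β1 to bind collagen. Ccr9 is the receptor for the gut chemokine CCL25. S1pr1 senses sphingosine 1-phosphate and draws lymphocytes back to blood and lymph, a movement that Cd69 opposes by removing S1PR1 from the cell surface.

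Promoter windows in the RefSeq-derived table (GRCm38.p6) were found for 4 of the 9 members, Itgb7, Itga4, Itga1 and Ccr9. The windows of Itgb7 and Itga4 are shown because their products join in one integrin, while the Itgb7 level was higher in induced than in natural IELs and the Itga4 level was nearly equal. Each runs 5′ to 3′ on the gene's strand from 250 bases before to 50 bases after the start, and capitals mark the letters CACCC or GGGTG, a core bound by KLF factors, and TGTGGT or ACCACA, a core bound by RUNX factors.
Itgb7 (chr15:102231886-102232185, minus strand): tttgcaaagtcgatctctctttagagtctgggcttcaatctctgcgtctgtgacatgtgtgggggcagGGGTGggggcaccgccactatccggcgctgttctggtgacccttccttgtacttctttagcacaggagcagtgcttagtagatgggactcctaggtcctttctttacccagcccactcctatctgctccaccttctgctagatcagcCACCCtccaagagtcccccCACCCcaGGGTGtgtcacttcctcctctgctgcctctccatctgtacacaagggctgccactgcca
Itga4 (chr2:79255176-79255475, plus strand): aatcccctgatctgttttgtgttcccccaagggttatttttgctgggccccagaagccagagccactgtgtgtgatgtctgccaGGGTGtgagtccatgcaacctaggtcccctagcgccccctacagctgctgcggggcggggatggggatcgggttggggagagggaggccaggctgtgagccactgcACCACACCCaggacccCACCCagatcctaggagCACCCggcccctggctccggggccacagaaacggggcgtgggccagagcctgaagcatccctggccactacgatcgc
Both windows held 4 KLF cores. In the Itga4 window 1 of these overlapped the RUNX core, the only RUNX core found in the 4 windows. Over all 32851 promoter windows, 57.5% held a KLF core and 16.8% a RUNX core on either strand, so the KLF core is common in windows of this length. A match of letters is a description of the window and no evidence of binding.

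In the annotation (GENCODE M21, GRCm38, the build called mm10 in the submitters' notes) the Itgae gene lies on chromosome 11 from 73090583 to 73147446 and Itgb7 on chromosome 15 from 102215995 to 102231944. S1pr1 spans 115710433 to 115715072 on chromosome 3. Haspin lies inside Itgae on the opposite strand, Pelo inside Itga1 on the same strand, Cerkl overlaps the end of Itga4 on the opposite strand, and Lztfl1 overlaps the annotated Ccr9 gene on the opposite strand. Whether the counting used strand is not given in the sources used here, so reads in these overlaps cannot be assigned with certainty. Pelo held 10 UMIs in IELs and 7 in epithelial cells, against 75 and 8 for Itga1.

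The authors' cluster table assigned 516 of the 1117 barcodes, each with 504 to 23205 UMIs and a median of 1126. This table and a second one, of epithelial subclusters, disagreed on 14 cells, which were listed as IELs in the first and as epithelial in the second. They held 101715 UMIs, most of them in 11 cells listed as iIELs (98969 UMIs), and were counted here only in their epithelial subcluster. This gave 187 natural IELs (nIELs, 240024 UMIs), 175 induced IELs (iIELs, 185158 UMIs), 47 cells of the B cell cluster (76713 UMIs), 32 stem cells, 32 secretory precursors and 42 absorptive precursors (349490 UMIs in the 3 epithelial subclusters). The remaining assigned cell (519 UMIs) was listed as epithelial in the cluster table and in no subcluster, and entered none of these groups. No barcode was shared by the 2 suffixes, and 62 assigned cells carried X2. Marker sums were set beside the labels. The nIEL and iIEL markers are those the study named for these clusters, which were made from these same cells. Their sums describe the labels and do not test them. Of 362 IELs, 329 held a UMI of Cd3d, Cd3e or Cd3g, the 4 nIEL markers (Cd7, Klrd1, Fcer1g, Tyrobp) summed to 6087 CPM (UMIs per 1000000 UMIs of the group) in nIELs against 2409 in iIELs, and the 4 iIEL markers (Cd8b1, Cd8a, Gzmb, Gzma) to 8555 in iIELs against 2066 in nIELs. The 7 B cell markers summed to 21222 CPM in the B cell cluster against 80.0 in IELs, but 11 of its 47 cells also held Cd3 UMIs and 12 held neither Cd3 UMIs nor any of Cd79a, Cd79b and Ms4a1, which bears on the members as described further on.

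The members' transcripts lay in the lymphocyte clusters. Of IELs, 255 of 362 (70.4%, exact binomial 95% interval 65.5 to 75.1) held a UMI of at least 1 member, against 9 of 106 epithelial subcluster cells (8.49%, 3.96 to 15.5), although the epithelial cells were deeper (median 1606 against 1038 UMIs). Each barcode is counted as 1 cell. Joining barcodes 1 base apart would leave 29 stem cells, 26 secretory and 38 absorptive precursors, 186 nIELs and 170 iIELs. No share is given after joining. Summed over the 9 genes, the level was 1083 CPM (exact Poisson 95% interval 956 to 1223) in nIELs, 1620 (1442 to 1814) in iIELs, 925 (723 to 1167) in the B cell cluster and 31.5 (15.7 to 56.3) in the epithelial subclusters. All intervals cover counting error only, since molecules of 1 sample say nothing of the spread between animals.

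Each of the 9 members was past 2-fold higher in IELs than in the epithelial subclusters, beside a background of 24.3% of the 8606 genes with at least 10 UMIs over the 2 groups (26.9% were past 2-fold lower). Clusters were made from these same cells, so this is a description and not a test. With each 0 taken as 3 counts the median ratio of the members was 19.7, and that of all genes was 1.02. Of the 9 member ratios 5 rest on such a 0, among them the median one, that of Itgb2, whose exact lower limit was 15.6. The epithelial side rested on 11 UMIs in all, of which 8 were Itga1 and 1 each Itgb7, Itgal and Itga4. Itgae, Itgb2, Cd69, Ccr9 and S1pr1 were at 0 in all 106 epithelial cells, which by a limit of 3 counts allows up to 8.58 CPM and up to 2.83% of cells with a UMI for each.

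**Figure D1:**
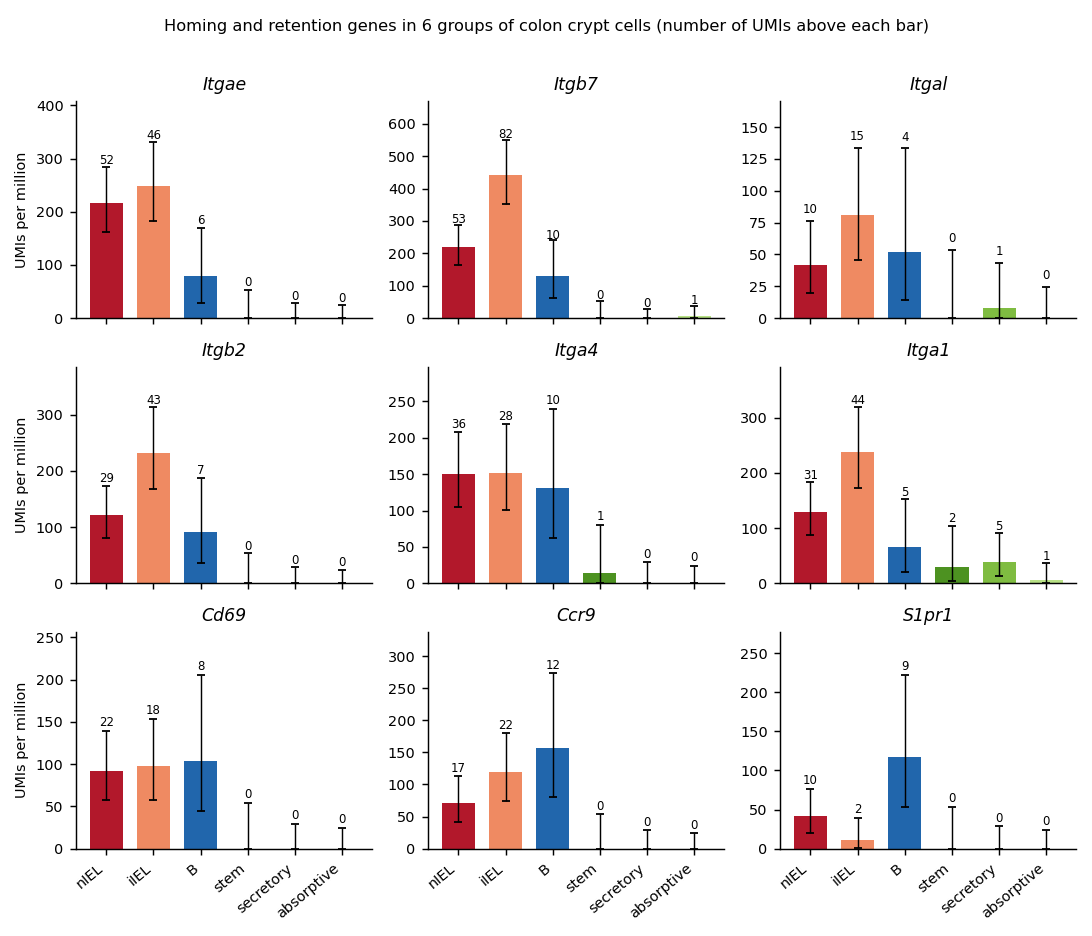
Level of each member in CPM (vertical axis, a separate scale for each gene) in nIELs, iIELs, the B cell cluster and the stem, secretory and absorptive subclusters. Bars are summed UMIs over summed depth, lines are exact Poisson 95% intervals of counting error, and the number above each bar is its UMIs. The epithelial bars hold at most 5 UMIs, Itgb7 is higher in iIELs (82 UMIs) than in nIELs (53), and S1pr1 is highest in the B cell cluster (9 UMIs).

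Among the subunits of the β7 integrins, Itgae was level between the IEL clusters and Itgb7 was not. Itgae was at 217 CPM (52 UMIs, interval 162 to 284) in nIELs, 248 (46 UMIs, 182 to 331) in iIELs and 78.2 (6 UMIs, 28.7 to 170) in the B cell cluster. The iIEL to nIEL ratio was 1.15 (0.754 to 1.74), and 20.3% of nIELs and 19.4% of iIELs held an Itgae UMI. Itgb7 was at 221 (53 UMIs, 165 to 289) in nIELs, 443 (82 UMIs, 352 to 550) in iIELs, 130 (10 UMIs, 62.5 to 240) in the B cell cluster and 6.59 in absorptive precursors on 1 UMI. Its iIEL level was above the nIEL level with intervals that do not touch, a ratio of 2.01 (1.40 to 2.89). With the IEL clusters as listed, which put the 14 cells with 2 listings back, the ratio was 1.34 with an interval that includes 1 (0.937 to 1.93). Itgb7 was detected in 33.7% (26.8 to 41.2) of iIELs against 21.9% (16.2 to 28.6) of nIELs although the iIELs were shallower (median 950 against 1148 UMIs). With each cell thinned to 700 UMIs the shares were 23.2% of 142 iIELs and 13.5% of 155 nIELs, with 33 and 32 shallower cells left out.

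Itga4, the other partner of β7, showed no such difference. It was at 150 CPM (36 UMIs, 105 to 208) in nIELs, 151 (28 UMIs, 100 to 219) in iIELs and 130 (10 UMIs, 62.5 to 240) in the B cell cluster, and the epithelial cells held 1 UMI, in the stem subcluster. The iIEL to nIEL ratio of 1.01 had an interval of 0.593 to 1.70.

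The lean of Itgb2 and Itga1 toward iIELs depended on how the 14 cells with 2 listings were treated. Itgb2 was at 121 CPM (29 UMIs, 80.9 to 173) in nIELs and 232 (43 UMIs, 168 to 313) in iIELs, a ratio of 1.92 (1.17 to 3.19). Itga1 was at 129 (31 UMIs, 87.8 to 183) and 238 (44 UMIs, 173 to 319), a ratio of 1.84 (1.136 to 3.014). The interval of each ratio lay above 1. With the clusters as listed both intervals included 1, at 1.27 (0.773 to 2.10) for Itgb2 and 1.24 (0.768 to 2.03) for Itga1. With suffix X1 alone both ratios were past 2, at 2.105 and 2.058. Suffix X2 alone had few UMIs and did not show the lean. There Itgb2 was at 1.09 (0.170 to 5.62, on 3 and 5 UMIs), and Itga1 had 0 UMIs in iIELs against 4 in nIELs. Itgal was at 41.7 (10 UMIs, 19.98 to 76.62) and 81.0 (15 UMIs, 45.3 to 134), and its ratio of 1.94 (0.817 to 4.84) could not be told from 1 at this depth. In the B cell cluster Itgb2 was at 91.2 (7 UMIs), Itga1 at 65.2 (5 UMIs) and Itgal at 52.1 (4 UMIs). Itga1 was also the member with the most epithelial UMIs, at 38.9 CPM (5 UMIs, 12.6 to 90.7) in secretory precursors, 29.0 in stem cells (2 UMIs in 1 cell) and 6.59 in absorptive precursors (1 UMI). Its IEL to epithelium ratio of 7.71 (3.72 to 18.5) was the lowest among the members with an epithelial UMI.

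Cd69, which holds T cells in tissue, was at 91.7 CPM (22 UMIs, 57.4 to 139) in nIELs, 97.2 (18 UMIs, 57.6 to 154) in iIELs and 104 (8 UMIs, 45.02 to 206) in the B cell cluster. The 3 lymphocyte levels did not differ beyond their counting intervals. In IELs it was at least 10.96-fold higher than in the epithelial subclusters with their 0 taken as 3 counts. The exact lower limit of that ratio was 8.51. Its UMIs were in 9.63% of nIELs and 6.86% of iIELs, against 14.9% of cells in the B cell cluster. All 48 Cd69 UMIs came from cells of suffix X1, and the 30 IELs of suffix X2 held none, which by a limit of 3 counts allows up to 96.5 CPM.

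Ccr9 was at 70.8 CPM (17 UMIs, 41.3 to 113) in nIELs, 119 (22 UMIs, 74.5 to 180) in iIELs and 156 (12 UMIs, 80.8 to 273) in the B cell cluster. The intervals of the 3 levels overlap, but the UMIs were spread over the cells in different ways. In IELs 39 UMIs lay in 30 cells with at most 3 in 1 cell, while in the B cell cluster 12 UMIs lay in 4 cells and 8 of them in 1.

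S1pr1, the egress receptor, was sparse in IELs. It was at 41.7 CPM (10 UMIs, 19.98 to 76.62) in nIELs, 10.8 (2 UMIs, 1.31 to 39.0) in iIELs and 117 (9 UMIs, 53.7 to 223) in the B cell cluster, and was detected in 6 IELs, 4 of them nIELs, and in 6 cells of the B cell cluster. A single nIEL of 5262 UMIs, the deepest IEL, held 7 of the 10 nIEL UMIs. Without it, 3 UMIs in nIELs and 2 in iIELs remained, too few for a ratio. With 0 taken as 3 counts, the bound over epithelium fell from at least 3.29-fold (exact lower limit 2.28) to at least 1.39-fold. That cell also held 4 UMIs of Klf2, the transcription factor that drives S1pr1, together with 15 UMIs of Cd3d, 2 of Itgb7, 3 of Itga4 and none of Itgae or Cd69.

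Set against all genes, few members differed between the IEL clusters by more than 2-fold. Of the 9 members 1 was past 2-fold higher in iIELs (Itgb7), beside 9.08% of the 5681 genes with at least 10 UMIs, and 1 was past 2-fold lower (S1pr1, ratio 0.259, 0.0276 to 1.22), beside 10.1%. Both shares of members were close to the background share, and Itgb7 stood at the threshold itself. The ratio was above 1 for 8 of the 9 members, with a median of 1.68, against 49.9% of all genes and a median of 0.997. That lean depended on the 14 cells with 2 listings. With the IEL clusters as listed, the iIEL totals took in the deep epithelial cells, the median of the members fell to 1.11, and 5 of 9 were above 1, with Itgae at 0.756, Itga4 at 0.665 and Cd69 at 0.699. Myeloid markers (8 genes) summed to 23 UMIs in 4 iIELs and 6 UMIs in nIELs, and epithelial markers (7 genes) to 281 CPM in iIELs against 133 in nIELs. Their part in the ratios was not tested.

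**Figure D2:**
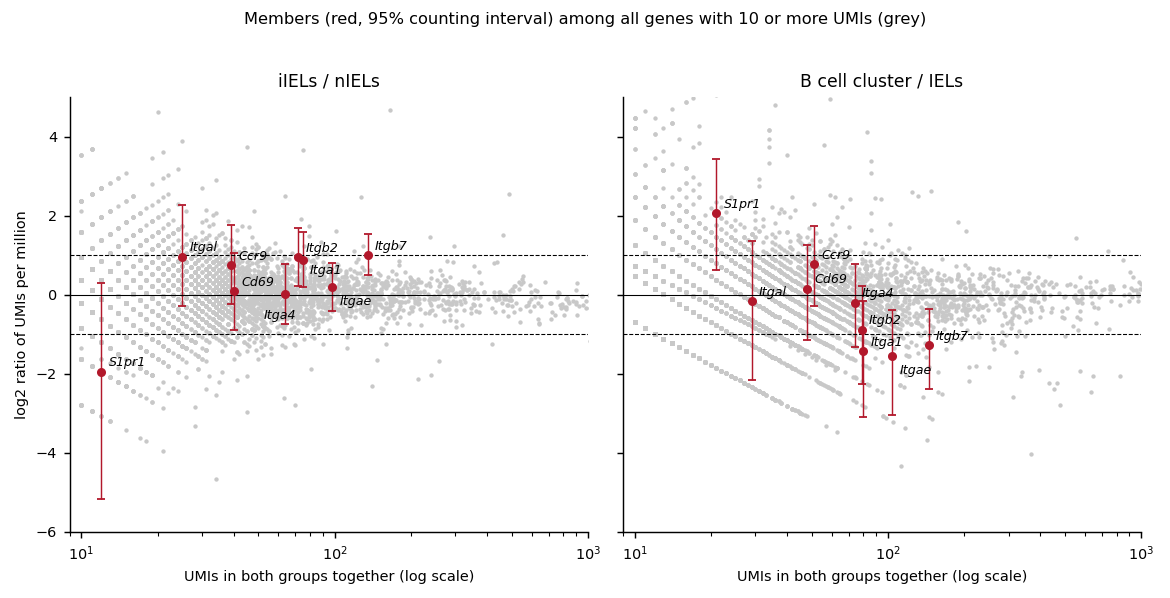
Log2 ratio of CPM (vertical axis) against the UMIs of both groups together (horizontal axis, log scale) for iIELs over nIELs (left) and the B cell cluster over IELs (right). Red points are the members with 95% counting intervals, grey points are all genes with at least 10 UMIs (some lie outside the axes), and dashed lines mark 2-fold. On the left Itgb7 sits on the upper line and S1pr1 below the lower one. On the right S1pr1 is above the upper line, and Itgae, Itgb7 and Itga1 are below the lower one.

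The B cell cluster had less of the epithelium-binding integrin and more S1pr1 than IELs. Itgae was at a ratio of 0.339 (0.122 to 0.766), Itgb7 at 0.411 (0.193 to 0.779), Itga1 at 0.370 (0.117 to 0.901) and S1pr1 at 4.16 (1.55 to 10.8). These were 3 of 9 members past 2-fold lower, beside 15.8% of the 6346 genes with at least 10 UMIs, and 1 of 9 past 2-fold higher, beside 11.4%. The median ratio was 0.866 for the members and 0.978 for all genes.

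Within this cluster the members' UMIs lay in different cells. By marker UMIs, 24 cells held Cd79a, Cd79b or Ms4a1 and no Cd3 gene, 10 held both kinds, 1 held Cd3 UMIs alone and 12 held neither, and all 47 held UMIs of Cd74, H2-Aa or H2-Eb1, genes of class II antigen presentation. In the 24 cells with B cell markers alone (33743 UMIs), Itgb7 and Ccr9 were at 0, Itgae had 2 UMIs in 1 cell, Itga1 1 UMI and Cd69 2, while Itga4 had 6 UMIs and S1pr1 4 UMIs in 4 cells (119 CPM). The 10 cells with both kinds held 29.3% of the cluster's UMIs. They held 4 of its 6 Itgae UMIs, 6 of 10 Itgb7 UMIs, 4 of 5 Itga1 UMIs, 6 of 8 Cd69 UMIs and 5 of 9 S1pr1 UMIs, of which 4 were in 1 cell. Without the 11 cells with Cd3 UMIs, Itgae, Itgb7, Itgb2, Itga1 and Cd69 were past 2-fold lower than in IELs (5 members in place of 3), beside 13.7% of all genes under that exclusion. Ccr9 (2.52, 1.203 to 4.92) and S1pr1 (2.73, 0.642 to 9.02, on 4 UMIs) were past 2-fold higher, beside 18.4%, and the S1pr1 interval included 1. In the 24 cells with B cell markers alone the S1pr1 ratio was 4.20 (0.987 to 13.9), and over the whole cluster it was 9.85 when the nIEL with 7 S1pr1 UMIs was left out.

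All 12 Ccr9 UMIs of the cluster lay in the 12 cells with neither kind of marker, in 4 of them. Among those 4 cells 3 also held Siglech, a surface gene known from plasmacytoid dendritic cells, with 7, 1 and 21 UMIs. Siglech, chosen after its values were seen, had 81 UMIs in the cluster, all in 8 of these 12 cells, and none in any other assigned cell. In cells of suffix X2 the B cell cluster held 5 cells, all of the kind with neither marker, and 3 of these carried 10 of the 12 Ccr9 UMIs. The cluster's Ccr9 ratio to IELs was 1.71 (0.813 to 3.33) over all cells, 0.318 with suffix X1 alone, 13.4 with suffix X2 alone, 0.583 without the cell with the most Ccr9 and 0.167 (1 UMI) without the cells with Siglech. Myeloid markers summed to 67 UMIs in 4 cells of the cluster, and their part in these ratios was not tested.

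**Figure D3:**
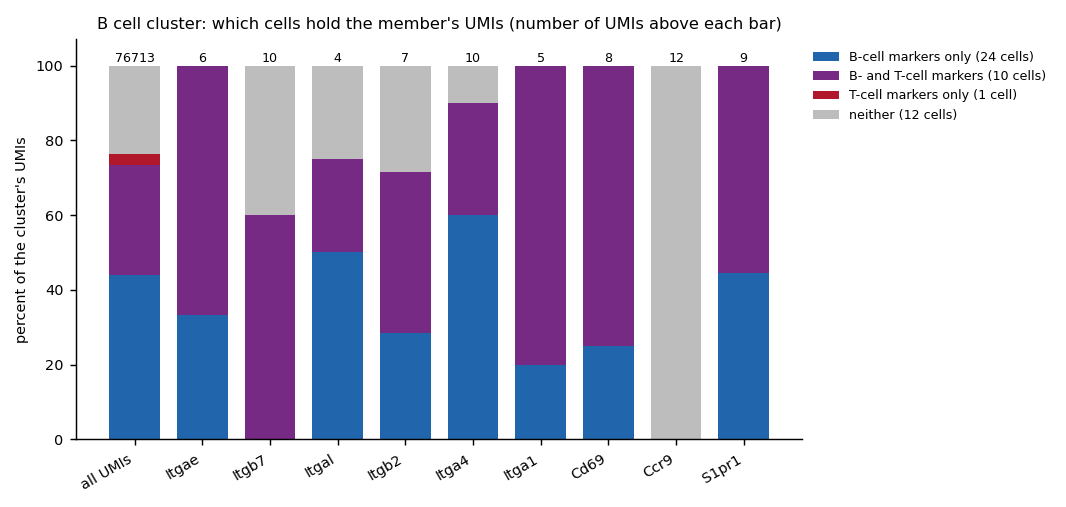
Percent of the B cell cluster's UMIs (vertical axis) held by 4 kinds of its cells, for all genes together (first bar) and for each member. Kinds are set by UMIs of B cell markers (Cd79a, Cd79b, Ms4a1) and T cell markers (Cd3d, Cd3e, Cd3g), and numbers above the bars are UMIs. Ccr9 lies wholly in the 12 cells with neither kind, and 4 of 5 Itga1 UMIs and 6 of 8 Cd69 UMIs lie in the 10 cells with both.

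IELs were then divided by UMIs of T cell genes, where a cell without a UMI may still express the gene. Trdc, the constant region of the T cell receptor δ chain, was detected in 45 IELs, 34 of them nIELs. Ccr9 was at 177 CPM (12 UMIs) in these 45 cells and 75.5 (27 UMIs) in the other 317, a ratio of 2.35 (1.08 to 4.79). Itgb7 went the other way, with 177 (12 UMIs) against 344 (123 UMIs) and a ratio of 0.515 (0.259 to 0.933). Itgal had no UMI in the cells with Trdc and 25 in the others, and Itgae was at 295 against 218 (ratio 1.35, 0.785 to 2.24). Within nIELs alone the Trdc ratio was 4.21 (1.44 to 12.5) for Ccr9 and 0.477 (0.167 to 1.12) for Itgb7. Within iIELs, where 11 cells held Trdc, it was 1.56 (0.295 to 5.29) and 0.779 (0.277 to 1.78). The intervals are not adjusted for the number of members and T cell genes compared. The cells with Trdc were deeper, with a median of 1352 against 1005 UMIs.

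For IELs as a whole, CD8 transcripts went with no clear difference in the members. Among IELs, 160 held Cd8a and 92 held Cd8b1, of which 85 were iIELs. For each of the 9 members the interval of the ratio included 1, for Cd8a and for Cd8b1, with Itgb7 in cells with Cd8b1 nearest to leaving it (1.47, 0.999 to 2.14). Within nIELs, however, Ccr9 was at 142 CPM (12 UMIs) in the 59 cells with Cd8a and 32.2 (5 UMIs) in the 128 without, a ratio of 4.401 (1.44 to 15.9), and Itga4 was at 70.8 and 193, a ratio of 0.367 (0.125 to 0.896). Within iIELs Ccr9 was lower in cells with Cd8b1, at 55.8 (5 UMIs) against 178 (17 UMIs, ratio 0.313, 0.0904 to 0.885), and Cd69 was higher, at 156 (14 UMIs) against 41.9 (4 UMIs, ratio 3.73, 1.17 to 15.6). In nIELs only 7 cells held Cd8b1, and they held 5 of the 17 Ccr9 UMIs (ratio 7.34, 2.03 to 22.4). These contrasts within clusters were picked from many after their values were seen, and the difference between nIELs and iIELs in them was not tested.

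**Figure D4:**
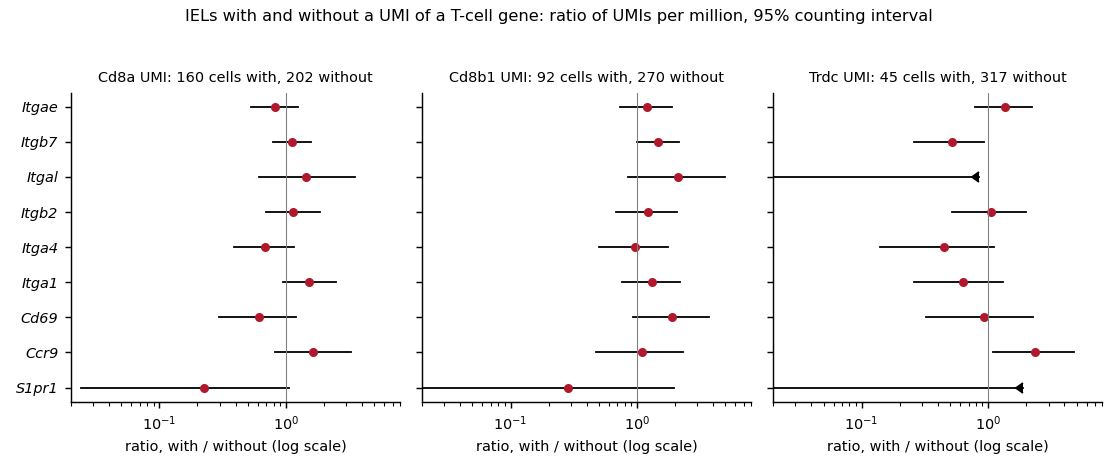
Ratio of CPM in IELs with over IELs without a UMI of Cd8a, Cd8b1 or Trdc (horizontal axis, log scale) for each member. Points are ratios, lines are 95% counting intervals cut at the left edge, and a triangle marks the upper bound where the cells with the gene held no UMI. In the Trdc panel Ccr9 lies right of 1 and Itgb7 left of it.

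Integrin partners were found in the same cells in numbers near those that independent detection gives. Excesses and deficits varied between clusters and rested on few cells. Itgae and Itgb7 were both detected in 8 nIELs and 13 iIELs, where the product of the shares gives 8.33 and 11.5. Itga4 and Itgb7 were both in 7 nIELs and 12 iIELs, where 5.70 and 7.75 are given. With cells thinned to 700 UMIs the iIEL values were 3.59 and 2.61, and the excess was not tested. Itgal and Itgb2 shared 4 IELs, against 3.20. Itgb1, the partner of α1, was sparse, with 31 UMIs in IELs, and shared 5 IELs with Itga1, against 4.07. Most detections were of 1 UMI (52 of the 72 IELs with Itgae and 72 of the 100 with Itgb7), so a partner can be missed in the same cell, and depth is common to both genes of a pair.

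The IELs with S1pr1 were few. None of the 6 IELs with S1pr1 held Itgae, which 20.2% of the other 356 IELs held, and independent detection gives 1.19 cells, so no difference was detectable at this number of cells. Klf2 was in 3 of the 6, against 2.25% of the others, and independent detection gives 0.182 cells. The S1pr1 cells were deeper, at a median of 1602 UMIs against 1036. Cd69 was in 1 of the 6.

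The other egress and recirculation genes were few. Of 9 listed, 8 had a row and 4 had 10 or more UMIs over the IEL clusters, of which 1 was past 2-fold higher in iIELs (beside 9.08% of all genes) and 2 lower (beside 10.1%). Klf2 had 15 UMIs in nIELs and 3 in iIELs (ratio 0.259, 0.0481 to 0.917) and 12 in the B cell cluster (3.69 times the IEL level, 1.62 to 8.11). Of these 12, 6 lay in the cluster's 11 cells with Cd3 UMIs (241 CPM), and its cells without Cd3 UMIs were at 116 CPM (42.5 to 252). The 15 Klf2 UMIs of nIELs lay in 9 cells, with 4 in the nIEL that held 7 S1pr1 UMIs and 4 in 1 other nIEL. The ratio without these cells was not computed. Klf3 had 15 and 4 UMIs in the IEL clusters and 56 in the epithelial cells. S1pr4 had 8 UMIs in nIELs and 13 in iIELs, and Foxo1 16 and 13.

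Few other chemoattractant receptors were measured well. Of 21 listed, 14 had a row, and the 4 with 10 or more UMIs over IELs and epithelium were past 2-fold higher in IELs, beside 24.3% of all genes, while the other 10 had too few UMIs. Cxcr6, receptor of the membrane-bound chemokine CXCL16, had 12 UMIs in nIELs and 52 in iIELs (ratio 5.62, 2.96 to 11.6), further above 1 than any member, and 2 of 4 were past 2-fold higher in iIELs beside 9.08% of all genes. Cxcr3 had 18 and 20 UMIs and Gpr18 18 and 9. In the B cell cluster 4 of 8 receptors with enough UMIs were past 2-fold higher than in IELs, beside 11.4% of all genes. Another 2 of the 8 were past 2-fold lower, beside 15.8%. Among the higher ones were Cxcr4 (14 UMIs against 2) and Ccr2 (9 against 7). Ccr6, a receptor for CCL20 named after its values were seen, had 13 UMIs against 1. The lower ones were Cxcr6 (5 UMIs against 64, ratio 0.433, 0.136 to 1.06) and Cxcr3 (3 against 38, ratio 0.438, 0.0864 to 1.38), with intervals that include 1.

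The remaining lists are read against 24.3% of all genes past 2-fold higher and 26.9% lower in IELs than in epithelium, and against 9.08% higher and 10.1% lower in iIELs than in nIELs. Of 21 other integrin subunits 17 had a row, and of the 6 with 10 or more UMIs over IELs and epithelium 5 were past 2-fold lower in IELs. They were Itgb4 (29 UMIs in epithelium, 0 in IELs), Itga6 (40 and 6), Itga2 (9 and 5), Itga3 and Itgb6 (9 and 1 each), while Itgb1 (50 and 31) was not past 2-fold. Among ligands and counter-receptors, Cdh1, which encodes the E-cadherin bound by αEβ7, had 86 UMIs in the epithelial subclusters and 20 in IELs. F11r and Ccl28 had 33 and 16 UMIs in epithelium and none in IELs, Sgpl1, which degrades sphingosine 1-phosphate, had 16 in epithelium and 7 in IELs, and Icam1 had 10 in IELs and none in epithelium. Of 18 genes on this list 16 had a row, 7 had enough UMIs, and 2 were higher and 5 lower in IELs. Of 17 integrin activation genes 16 had enough UMIs and 14 were past 2-fold higher in IELs, including Fyb (124 UMIs in nIELs and 169 in iIELs), Coro1a (148 and 108), Tln1 (63 and 59), Skap1 (70 and 38), Apbb1ip (49 and 26) and Stk4 (43 and 29). Between iIELs and nIELs, 2 of 15 were past 2-fold higher and 1 lower (4 lower with the clusters as listed). Of 18 tissue residence genes 13 had enough UMIs, 10 were past 2-fold higher and 2 lower in IELs, and none of 10 was past 2-fold between the IEL clusters in either direction, although 3 were lower in iIELs with the clusters as listed. They included Rgs1 (175 and 148 UMIs in nIELs and iIELs), Cd160 (210 and 92), Jaml (93 and 82), Runx3 (63 and 61), Rgs2 (50 and 29) and Litaf (30 and 35).

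Over the 516 assigned cells no gene followed a member closely. The highest Pearson correlations of log-scaled UMIs among 5412 genes, given as a description since all cells share libraries and depth, were 0.279 for Itgb7 with Vim (then H2-D1 and Tmsb4x), 0.255 for Itgb2 with Malsu1 (then Rnf149 and Cep250), 0.249 for Cd69 with Tnfrsf18 (then Pim2 and Sh3kbp1) and 0.225 for Itgae with Cd3g (then Ccl5 and Tmsb4x). For Itga4 the 3 genes were Rac2, Gimap4 and Trbc2 (highest 0.218), for Ccr9 Unc119b, Tle3 and Eid1 (0.214), for Itga1 Prkd3, Hist3h2a and Tcrg-C2 (0.212) and for Itgal Gabpb2, Kdm7a and Rab27a (0.205). S1pr1, detected in 12 cells, was left out. In sparse counts such values are no finding. Depth itself moved detection. Among IELs below the median depth 15.5% held Itgae and 3.87% Ccr9, against 24.3% and 12.7% at or above it, while the Itgae level was 271 and 211 CPM with overlapping intervals (192 to 372 and 161 to 271). The level was also higher in the cells below the median for Itga1, Itgal, Cd69, Itgb7 and Itgb2, and lower there for Itga4, Ccr9 and S1pr1. Itga1 was at 264 (186 to 363) below the median and 133 (94.4 to 183) at or above it, Itgal at 106.9 (59.8 to 176) and 35.1 (16.8 to 64.6), and Cd69 at 142 (87.1 to 220) and 70.2 (42.9 to 108). Itgb7 was at 392 (295 to 510) and 281 (223 to 349.5), and Itgb2 at 214 (144 to 305) and 147 (106 to 199). The Itga1 intervals do not touch and those of Itgal, Cd69, Itgb7 and Itgb2 overlap. iIELs were the shallower IEL cluster, with medians of 950 and 1148 UMIs, and the part of depth in the iIEL to nIEL ratios was not tested.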

How the data were processed

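Cells of 2 pooled libraries were profiled by Drop-seq, mixed with human cells before capture. The authors aligned reads and counted UMIs with the Drop-seq pipeline and deposited 1 matrix of raw counts (whole UMIs per gene and barcode, no normalization). Builds mm10 and hg19 and the tools Picard 1.137 and STAR 2.5.0 appear in the submitters' processing notes. Cluster and subcluster names came from the authors' cell lists (made with Seurat) and were joined by barcode. Of 557 barcodes with 500 or more UMIs, 516 were on the list. Summed UMIs per group were divided by the group's total UMIs (504 to 23205 UMIs per cell) and given per 1000000 UMIs (CPM). Levels have exact Poisson intervals, shares exact Clopper-Pearson intervals, and ratios exact intervals on the split of UMIs, all at 95%. A group at 0 was set to 3 counts over the group and the ratio given as a bound. "Past 2-fold" needs at least 10 UMIs over both groups. With 1 sample no p-value was computed.

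For likeness, members in at least 20 cells were correlated with genes over cells on a log scale, and the 3 highest were named. Strand use in counting is not given in the sources used here. No doublet caller was run. Cells with at least 2 markers of another class (10 of 47 in the B cell cluster, 3 of 362 IELs, 2 of 106 epithelial cells) were left out as an alternative. For thinning, 700 UMIs were drawn from each cell 100 times. Members are all named. From each wider list at most 6 genes with 10 or more UMIs, those with the most, were named, with genes of a fixed pair, and a few results are not reported here. Ccr6 and Siglech were named after their values were seen, and the alternatives that leave out cells by Cd3 or Siglech UMIs were chosen after seeing the data. Of the listed genes 15 had no row and are not analysed here, and Jaml was found under its older symbol Amica1. Remaining marker lists gave low sums in IELs, with 9 UMIs for 5 stroma and endothelium markers and 24 for 2 mast cell markers (all in nIELs). Members and lists were chosen with earlier results of these data known. The ratio and interval code was checked on simulated counts. Python 3.11.15, scipy 1.17.1 and pandas 2.3.3 were used.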

Additional observations from a re-analysis of the deposited data

Results flagged for a closer look

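Members were also found in the 601 barcodes outside the cluster table (median 212 UMIs), a signal in data that the comparisons do not use, above the 3 counts that a count of 0 allows. These barcodes held 17 Itgae UMIs, 23 Itgb7, 7 Itgb2, 7 Itga4, 10 Itga1, 5 Cd69 and 15 Ccr9 UMIs. At least 1 member was found in 63 of them, of which 37 also held a UMI of Cd3d, Cd3e or Cd3g and 4 held 500 or more UMIs. The 15 Ccr9 UMIs lay in 12 barcodes, 9 of them with Cd3 UMIs. Whether these barcodes are cells was not tested.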

How the results depend on the processing

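Of 234 member ratios recomputed under the alternatives, 221 stayed within the counting interval of the reported ratio (or, for bounds, on the same side of 2-fold), 12 left it and 1 past 2-fold reversed. The alternatives include joining barcodes 1 base apart, which cannot change a ratio of summed UMIs. Of all 234, 22 lay on the other side of 1 from the reported ratio, 16 of them within its interval, including Itgae, Itga4 and Cd69 in iIELs over nIELs with the clusters as listed. The reversed ratio was Itgb7 in the B cell cluster over IELs with suffix X2 alone (2.004, on 3 and 8 UMIs). With suffix X2 alone few genes reach 10 UMIs, so 0 members were past 2-fold higher in IELs than in epithelium, 0 in either direction between the IEL clusters, and 2 higher (Itgb7 and Ccr9) and 0 lower in the B cell cluster. Of all genes, 20.3% were higher in IELs with this suffix alone. Between the IEL clusters 13% were higher and 15% lower in iIELs, and in the B cell cluster 15.5% were higher and 16.1% lower. Members past the fold in iIELs over nIELs numbered 5 higher at 1.5-fold and 0 at 3-fold. No share of all genes is given for these 2 folds or for equal weights. The same holds for totals without mitochondrial and ribosomal protein genes and for leaving out a gene's top cell. Counts of members under these settings therefore stand without a background. At 2-fold they numbered 0 higher with the clusters as listed, 0 without mitochondrial and ribosomal protein genes in the totals (Itgb7 ratio 1.93), 0 without the cell with the most UMIs of each gene (Itgb7 1.92), 2 when cells were averaged with equal weight (mean CPM per cell; Itgb7 and Itgal) and 2 with suffix X1 alone (Itgb2 and Itga1, with Itgb7 at 1.945). The lower count, S1pr1, was 0 with equal weights and without its deepest cell. Beside these counts, 17.1% of all genes were higher in iIELs with the clusters as listed and 9.26% with suffix X1 alone. For IELs with Cd3 UMIs only, chosen after seeing the data, Itgb7 was at 1.999, just under the threshold, which gave 0, beside 9.62%. In the B cell cluster 2 members were higher at 1.5-fold, with the clusters as listed or under equal weights, and 0 were lower at 3-fold. Without mixed cells, and without cells with Cd3 UMIs (chosen after seeing the data), 2 were higher and 5 lower. Of all genes, 15.6% were higher and 14.6% lower without mixed cells, and 18.4% and 13.7% without cells with Cd3 UMIs. With the clusters as listed 12.6% were higher in the B cell cluster. The causes of these changes were not tested. Leaving mitochondrial and ribosomal protein genes out of the totals moved the median log2 ratio of all genes in IELs over epithelium from 0.02 to 0.16. S1pr1 in IELs over epithelium was 1.66 under equal weights. Over the 6 groups in place of cells, none of the most alike genes were shared with those named. Sparse counts limit all of these values. No paired analysis was possible because the barcodes could not be tied to the pools.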
